A study of Mus musculus with 9 samples.

Results

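The genes followed here, 10 in all, act in class I antigen presentation and were measured in mouse CD4+ T cells: the heavy chain genes H2-K1, H2-D1, H2-Q4, H2-Q6, H2-Q7, H2-Q10, H2-T22 and H2-T23, the light chain gene B2m and the class I transactivator gene Nlrc5. They were taken by name from the 55573 gene identifiers that were counted. H2-Q10 was selected on its lower level at 39 °C than at 37 °C in these same libraries, and the other 9 are genes of its family and pathway, so the levels of H2-Q10 are given as a description without a test, and so is the difference between 39 °C and 37 °C for every one of the 10 genes. All 10 passed the filter on low counts, as did 13328 genes in all.

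The cells came from the spleen of B6 mice, and 3 groups of 3 RNA-sequencing libraries were made. Cells activated at 39 °C were held for 3 hours on plates carrying anti-CD3 and anti-CD28 antibodies, which engage the T cell receptor complex and its costimulatory receptor. Cells activated at 37 °C had the same antibodies for the same 3 hours. Naive cells were not activated, and the time they spent in medium is not given in the sources used here. No mutation or transgene is labelled in any group. Whether replicate libraries stem from different mice or cultures is not labelled, and p-values here reflect the spread among libraries alone, which may be technical. The protocol describes the plating of spleen cells, while the source is given as CD4+ T cells, and the point at which CD4+ cells were isolated is not stated.

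A class I molecule is a heavy chain folded with beta-2 microglobulin around a short peptide, and it shows samples of the cell's own proteins to CD8+ T cells and natural killer cells. H2-K1 and H2-D1 encode the classical heavy chains of B6 mice, which nearly all nucleated cells carry. The Q and T genes encode nonclassical chains of more restricted function, and H2-Q10 is known as a chain that is secreted, chiefly by the liver. The shared upstream sequence of class I genes carries an enhancer read by NF-kB, an interferon-responsive element, and the S, X and Y boxes through which NLRC5 acts together with RFX, CREB/ATF and NF-Y factors.

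The heavy chain genes are alike in sequence. The promoter windows of the classical genes, of H2-Q7 and of H2-Q10 are printed to show where H2-Q10 differs from other K, D and Q members. Whether this stretch bears on the level of H2-Q10 was not tested. Each window runs between a pair of short sequences that the K, D and Q members share, on the gene's own strand, from RefSeq on GRCm38.p6, at chr17:34000301-34000517, chr17:35262864-35263079, chr17:35438963-35439177 and chr17:35469854-35470072. Relative to the RefSeq start, they span -170 to 46 for H2-K1, -230 to -15 for H2-D1, -192 to 22 for H2-Q7 and -235 to -17 for H2-Q10. The TATAAA of H2-K1 thus lies at 35, after the start used here. Capitals mark matches on either strand to an NF-kB-like motif (GGGATTNCC), an interferon-factor-like motif (AANNGAAA, read as TTTCNNTT on the other strand), an X-box-like motif (TGNTGAC), the pentamer CCAAT read by NF-Y, and the TATA-like hexamer TATAAA.
H2-K1: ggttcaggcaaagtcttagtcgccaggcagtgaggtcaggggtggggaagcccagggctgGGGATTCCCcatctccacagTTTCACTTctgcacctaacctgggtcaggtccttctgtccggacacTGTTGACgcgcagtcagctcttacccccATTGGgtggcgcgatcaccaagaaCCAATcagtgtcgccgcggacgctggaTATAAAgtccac
H2-D1: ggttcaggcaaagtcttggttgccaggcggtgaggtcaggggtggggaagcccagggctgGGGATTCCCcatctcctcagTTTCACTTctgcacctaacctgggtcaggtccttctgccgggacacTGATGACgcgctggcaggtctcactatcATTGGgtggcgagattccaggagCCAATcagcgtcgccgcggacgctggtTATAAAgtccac
H2-Q7: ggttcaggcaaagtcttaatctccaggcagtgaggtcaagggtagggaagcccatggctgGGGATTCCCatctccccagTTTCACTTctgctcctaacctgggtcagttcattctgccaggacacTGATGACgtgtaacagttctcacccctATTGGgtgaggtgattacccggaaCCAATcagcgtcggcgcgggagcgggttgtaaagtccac
H2-Q10: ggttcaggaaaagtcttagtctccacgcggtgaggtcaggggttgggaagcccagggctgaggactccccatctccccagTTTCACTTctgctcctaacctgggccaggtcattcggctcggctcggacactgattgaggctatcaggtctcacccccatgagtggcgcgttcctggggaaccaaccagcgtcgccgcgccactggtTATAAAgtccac

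The H2-Q10 window kept the interferon-factor-like match and TATAAA and held no match to the NF-kB-like motif, the X-box-like motif or CCAAT. The promoters of H2-T22, H2-T23 and B2m held no match to the NF-kB-like motif either. H2-K1, H2-D1 and H2-Q4 held all 5 motifs, and H2-Q6 and H2-Q7 held all but TATAAA. Promoter sequences of 300 bases, of which 250 lie before the start of the gene, were at hand for 9 members. Over these whole promoters, 5 of the 9 held the NF-kB-like motif, against 0.938% of 32851 mouse promoters of the same length, 8 held the X-box-like motif, against 14.1%, and 8 held CCAAT, against 37.4%. The interferon-factor-like motif was found in 9 of 9, against 23.9%, and TATAAA in 5, against 13.6%. The letters were chosen after the windows had been read, and a match or its absence describes the letters of the window only. Between windows, H2-Q10 was 82.2% to 86.8% identical to the others, and the other 5 K, D and Q members were 85.1% to 97.7% identical among themselves. H2-Q6 and H2-Q7 were the closest, with 5 differing bases.

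The promoter of the light chain gene B2m is printed with the same capitals, because the product of B2m pairs with every heavy chain. This promoter was not aligned with the windows above. It held a match to each motif but the NF-kB-like one. It lies at chr2:122147437-122147736 on GRCm38.p6.
B2m: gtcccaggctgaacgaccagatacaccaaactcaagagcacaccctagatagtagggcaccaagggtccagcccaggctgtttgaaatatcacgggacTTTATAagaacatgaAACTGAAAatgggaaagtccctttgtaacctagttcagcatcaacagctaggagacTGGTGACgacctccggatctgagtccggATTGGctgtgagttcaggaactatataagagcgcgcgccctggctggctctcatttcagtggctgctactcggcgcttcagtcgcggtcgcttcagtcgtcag

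The 8 heavy chain genes lie on chromosome 17 of GRCm38. H2-K1 (ENSMUSG00000061232) lies at 33996017 to 34000347 on the minus strand, H2-D1 (ENSMUSG00000073411) at 35262730 to 35267499 on the plus strand, and H2-Q4 (ENSMUSG00000035929), H2-Q6 (ENSMUSG00000073409), H2-Q7 (ENSMUSG00000060550) and H2-Q10 (ENSMUSG00000067235) follow on the plus strand, with H2-Q10 at 35470089 to 35474563. H2-T23 (ENSMUSG00000067212) and H2-T22 (ENSMUSG00000056116) lie on the minus strand further along, from 36029773 to 36042747. B2m (ENSMUSG00000060802) is on chromosome 2 and Nlrc5 (ENSMUSG00000074151) on chromosome 8.

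Because the copies are alike, a read can belong to more than one of them, and how reads that map to several places were counted is not given in the sources used here. Of the 75-base stretches of H2-Q10 transcripts, 87.5% occurred in no other annotated gene, against 96.9% for H2-K1, 94.4% for H2-D1, 79.3% for H2-Q4, 78.9% for H2-Q6 and 83.0% for H2-Q7. For H2-T22 the share was 60.03%, the lowest of the 10, and H2-T22 shared 581 of its stretches with H2-T10 and 930 with an antisense gene that had 0 to 7 counts per library. The stretches of B2m were all its own at each length. The gene that shared most with H2-Q10 was H2-Q7, with 416 stretches, or 9.07% of those of H2-Q10. In coding sequence H2-Q10 was 87.7% identical to H2-Q7 and 89.6% identical to H2-D1, while H2-Q6 and H2-Q7 were 95.4% identical. Values of the heavy chain genes are therefore uncertain to the extent that their reads were split or dropped. None of the counted identifiers matched the symbols H2-Q8, H2-Q9 or H2-T9, and any part of such copies in these values was not tested. Antisense genes overlapped the exons of H2-Q4 (365 to 659 counts per library) and of Nlrc5 (376 to 508 counts), and without a stated strand setting those reads cannot be told apart.

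**Figure D1:**
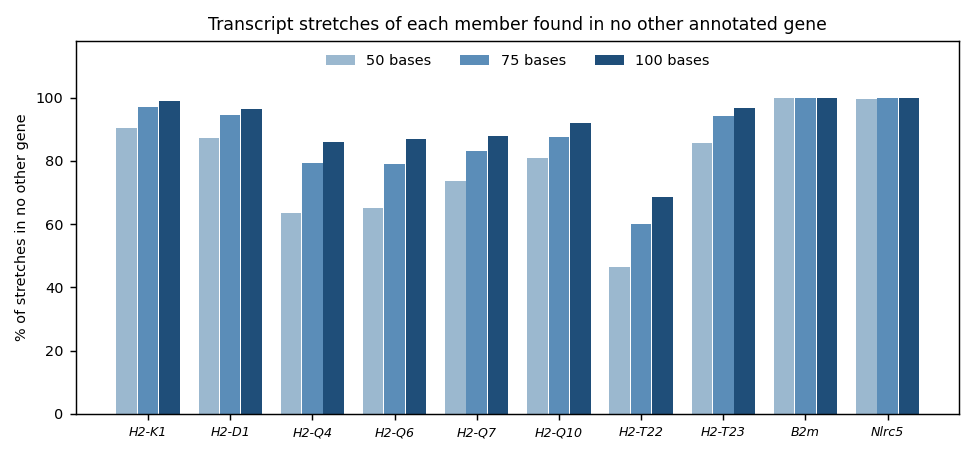
Share of the 50-, 75- and 100-base stretches (percent, vertical axis) of each member's annotated transcripts that occur in no other annotated gene; bars run from the shortest to the longest stretch. H2-T22 has the lowest share at each length, H2-Q10 has 80.9%, 87.5% and 92.0%, and B2m has 100%.

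Libraries held 12647692 to 17605549 counts. The summed level of 8 CD4 T cell markers was 5378 to 5793 CPM (counts scaled to library size, with factors from the trimmed mean of M values) at 39 °C, 5197 to 5456 CPM at 37 °C and 4141 to 5074 CPM in naive libraries, and all 8 were detected in each group. Of the 8, edgeR called 2 higher and 2 lower at 39 °C against naive, and 2 higher and 3 lower at 37 °C (adjusted p under 0.05). Among all genes tested, 58.9% and 62.7% were called. Cd5 rose, averaging 1298 CPM at 39 °C, 1263 at 37 °C and 536 in naive cells, and so did Zap70 (719, 707 and 298). Cd4 fell, with 614, 611 and 799 CPM in the same order. The B cell marker sum (10 genes) was 289 to 301 CPM at 39 °C, 263 to 277 CPM at 37 °C and 766 to 916 CPM in naive libraries. Ighm carried most of it, with 167 ± 6.73 CPM at 39 °C, 147 ± 3.25 at 37 °C and 631 ± 58.7 in naive cells (SD, n = 3 each), and 9 of the 10 fell in both comparisons with naive. Fcer2a went the other way, with 42.4 ± 1.42 CPM at 39 °C, 36.5 ± 4.67 at 37 °C and 14.4 ± 0.56 in naive cells. Sums for NK cells (28.9 to 32.7, 32.3 to 34.9 and 64.3 to 79.8 CPM), CD8 T cells (12.6 to 14.6, 13.5 to 15.1 and 25.8 to 36.1 CPM), myeloid and dendritic cells (8.19 to 11.5, 9.24 to 10.6 and 17.0 to 23.2 CPM) and red cells (2.94 to 4.18, 2.79 to 3.29 and 135 to 226 CPM), each in the order 39 °C, 37 °C and naive, were also highest in naive libraries. A list of stroma and endothelium genes summed to 157 to 162, 131 to 136 and 296 to 318 CPM in the same order, nearly all of it Pecam1, which T cells also carry. In bulk libraries fewer cells of a type and less RNA per cell cannot be told apart, and the part of these other cells in the differences from naive cells was not tested. Libraries of naive cells also differed from each other by gene length: among the 3332 genes with the shortest exons, naive library 1 stood 0.18 above and naive library 2 0.16 below the naive mean on the log2 scale (median), and among the 3332 with the longest, 0.095 below and 0.095 above. In the other 7 libraries these medians lay between -0.062 and 0.068.

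H2-Q10 was the one member whose 37 °C libraries all lay above the naive ones, and it was the least abundant of the 10. It had 75, 45 and 42 counts in the libraries of 39 °C, 158, 161 and 158 in those of 37 °C and 64, 57 and 77 in naive libraries. In CPM these were 4.67, 3.58 and 2.93 at 39 °C, 11.3, 11.1 and 12.3 at 37 °C and 4.40, 3.996 and 4.34 in naive cells. The 37 °C libraries stood above all the others, and the 39 °C and naive libraries overlapped. The fitted log2 difference was -1.62 ± 0.16 (SE) at 39 °C against 37 °C, 1.44 ± 0.15 at 37 °C against naive and -0.18 ± 0.17 at 39 °C against naive. The last of these was -0.40 without 39 °C library 1 and -0.026 without 39 °C library 3. At 39 °C against 37 °C, the contrast that picked the gene, 0.758% of all genes tested were called (adjusted p under 0.05), 0.623% lower and 0.135% higher.

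The same H2-Q10 counts can be written as a share of the counts of the 8 heavy chain genes, which needs no scaling between libraries and is no independent evidence of the pattern. The share was 0.0337% ± 0.0064 at 39 °C, 0.101% ± 0.0047 at 37 °C and 0.0325% ± 0.0010 in naive cells (SD, n = 3 each). Set against H2-Q7, the gene it shares most sequence with, H2-Q10 had 0.331%, 0.252% and 0.215% as many counts at 39 °C, 0.775%, 0.783% and 0.867% at 37 °C and 0.272%, 0.256% and 0.257% in naive cells. These ratios rest on the counts that selected H2-Q10, and the part of reads shared between the copies in its values was not tested. Genes of the liver, the known chief source of H2-Q10, were close to absent: 4 of 6 hepatocyte markers (Alb, Apoa1, Apoa2, Ttr, Serpina1a and Fgb) had no count in any library of a given group, and their summed level was 0 to 0.209 CPM at 39 °C, 0.155 to 0.345 CPM at 37 °C and 0.0687 to 0.140 CPM in naive cells. Which cells the H2-Q10 counts came from was not tested. Within 60 kb of H2-Q10, the pseudogene Gm8752 had 0 to 3 counts per library, Pou5f1 had none, and Tcf19 had 85, 72 and 73 counts at 39 °C, 61, 54 and 41 at 37 °C and 208, 164 and 211 in naive libraries.

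**Figure D2:**
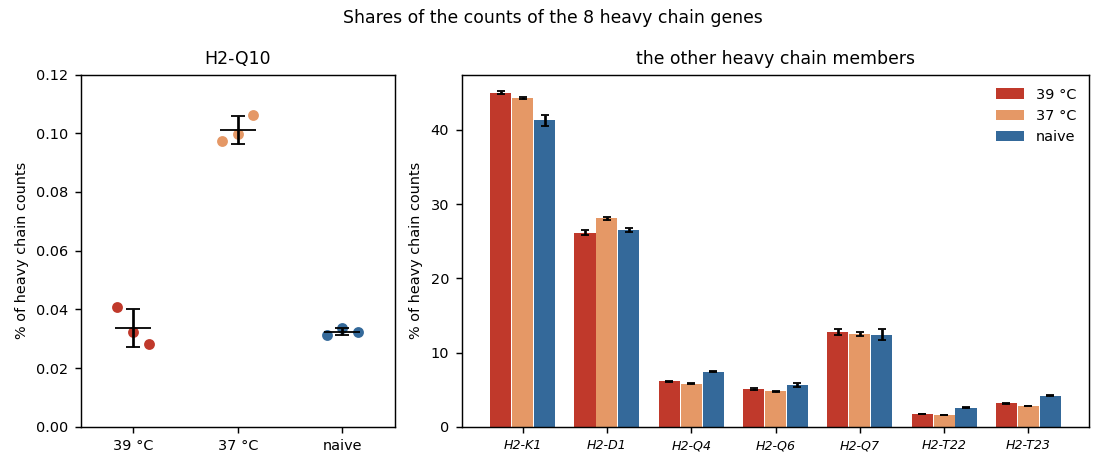
Share (percent, vertical axes) of the counts of the 8 heavy chain members that each gene held; left, H2-Q10 in every library (points) with mean and SD, right, the other 7 as means (bars) with SD, n = 3 libraries per group. H2-Q10 holds 0.101% at 37 °C, against 0.0337% at 39 °C and 0.0325% in naive cells, while H2-K1 holds over 40% in each group.

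The genes whose pattern over the 9 libraries was most like that of H2-Q10 were Plod1, P4ha1, Gprasp1, Tmc4 and Anxa5, out of 8938 genes compared, all averaging 5 CPM or more. Likeness is the root-mean-square difference of log2 CPM centred on each gene's mean, and it was 0.313 for Plod1 and 0.369 for Anxa5, against 0.738 for the spread of H2-Q10 itself. Plod1, a lysyl hydroxylase of collagen, averaged 15.3 ± 0.041 CPM at 39 °C, 33.7 ± 1.34 at 37 °C and 11.6 ± 0.52 in naive cells (SD, n = 3 each). P4ha1, a subunit of collagen prolyl hydroxylase, averaged 67.0 ± 3.83, 135 ± 6.44 and 52.6 ± 3.404 CPM in the same order of groups. All 5 were chosen for this pattern, so their values are a description.

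**Figure D3:**
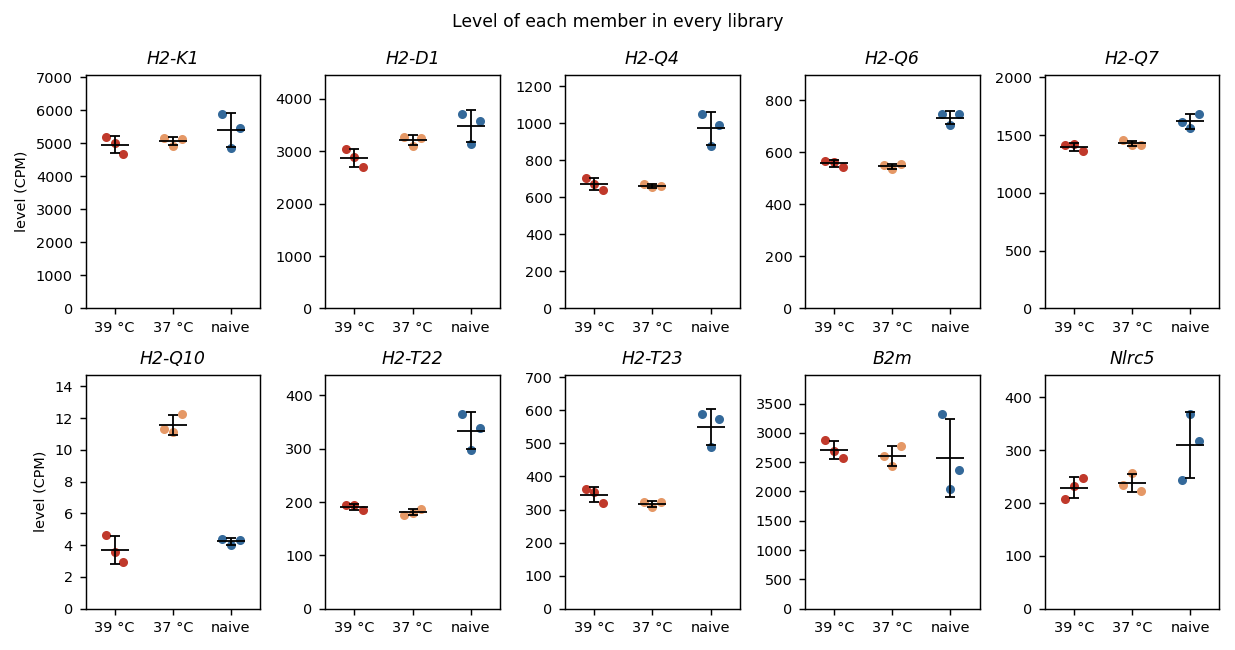
Level in CPM (vertical axis, from 0, own scale per gene) of each member in every library (points), with mean and SD (bars), n = 3 per group. The 37 °C points of H2-Q10 stand alone above 11 CPM, the naive points of H2-Q4, H2-Q6, H2-Q7, H2-T22 and H2-T23 stand above both activated groups, and those of B2m and Nlrc5 are spread widely.

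The nonclassical T genes showed the largest tested differences from naive cells, at either temperature. H2-T22, whose product is bound by a subset of gamma-delta T cells, had 195, 194 and 185 CPM at 39 °C, 176, 179 and 187 at 37 °C and 366, 297 and 339 in naive libraries. Every activated library lay below every naive one, and the 39 °C and 37 °C libraries overlapped. It changed by -0.81 ± 0.079 on the log2 scale at 39 °C against naive (edgeR adjusted p = 3.28e-06) and by -0.89 ± 0.079 at 37 °C against naive (edgeR adjusted p = 1.36e-06). H2-T23 encodes Qa-1, which shows peptides cut from the leader sequences of other class I chains to the CD94/NKG2 receptors. It had 363, 353 and 320 CPM at 39 °C, 322, 307 and 324 at 37 °C and 589, 488 and 574 in naive libraries. It changed by -0.67 ± 0.085 at 39 °C (edgeR adjusted p = 2.76e-05) and by -0.79 ± 0.085 at 37 °C (edgeR adjusted p = 6.40e-06) against naive. Both comparisons use the same naive libraries.

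Of the Q members other than H2-Q10, all 3 fell against naive cells in both activated groups. H2-Q5, a Q gene outside the 10 and outside the rule for named genes, was not called in either comparison. It differed from naive by -0.16 ± 0.082 at 39 °C (edgeR adjusted p = 0.105) and by -0.12 ± 0.082 at 37 °C (edgeR adjusted p = 0.241). H2-Q4, which encodes a nonclassical chain, had 704, 672 and 642 CPM at 39 °C, 672, 654 and 660 at 37 °C and 1053, 878 and 990 in naive libraries, and it changed by -0.53 ± 0.081 at 39 °C (edgeR adjusted p = 0.000119) and by -0.56 ± 0.081 at 37 °C (edgeR adjusted p = 7.85e-05). H2-Q6 and H2-Q7 belong to the genes of the Qa-2 antigens. H2-Q6 had 568, 565 and 543 CPM at 39 °C, 551, 535 and 554 at 37 °C and 750, 704 and 748 in naive libraries, with changes of -0.39 ± 0.065 at 39 °C (edgeR adjusted p = 0.000257) and -0.42 ± 0.065 at 37 °C (edgeR adjusted p = 0.000130). For these genes, too, no activated library reached the lowest naive one. H2-Q7 had 1412, 1420 and 1362 CPM at 39 °C, 1456, 1418 and 1415 at 37 °C and 1619, 1559 and 1688 in naive libraries. Its changes were the smallest of the 3, -0.21 ± 0.070 at 39 °C (edgeR adjusted p = 0.0200) and -0.18 ± 0.070 at 37 °C (edgeR adjusted p = 0.0393). The H2-Q7 call at 37 °C was lost in 10 of 16 alternatives, among them each omission of a 37 °C or 39 °C library and of naive library 3 (-0.15), and at 39 °C it was lost in 5. With the counts of the H2-Q genes summed before the fit, which leaves aside how reads were split among them, the log2 difference of the sum was -0.33 at 39 °C and -0.32 at 37 °C against naive.

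The classical heavy chains made up most of the class I counts, and of the pair only H2-D1, at 39 °C, passed the test against naive. H2-K1 had 5182, 4997 and 4672 CPM at 39 °C, 5152, 4918 and 5127 at 37 °C and 5901, 4870 and 5471 in naive libraries. The 3 groups overlapped, and the log2 differences from naive were -0.13 ± 0.092 at 39 °C (edgeR adjusted p = 0.246) and -0.096 ± 0.092 at 37 °C (edgeR adjusted p = 0.381). H2-D1 had 3042, 2882 and 2695 CPM at 39 °C, 3272, 3104 and 3256 at 37 °C and 3719, 3129 and 3571 in naive libraries. It fell by 0.27 ± 0.089 at 39 °C against naive (edgeR adjusted p = 0.0195), a call that was lost without 39 °C library 2, 39 °C library 3 or naive library 3 (-0.27, -0.22 and -0.25), and its difference at 37 °C against naive was -0.11 ± 0.089 (edgeR adjusted p = 0.287). At 39 °C against 37 °C the fitted difference of H2-D1 was -0.16 ± 0.089, and the libraries of both temperatures did not overlap. The ratio of H2-K1 to H2-D1 counts, which needs no scaling, was 1.70, 1.73 and 1.73 at 39 °C, 1.57, 1.58 and 1.57 at 37 °C and 1.59, 1.56 and 1.53 in naive libraries. This ratio rests on the same counts and was not tested.

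B2m, the light chain of every heavy chain above, had 2876, 2682 and 2570 CPM at 39 °C, 2602, 2433 and 2774 at 37 °C and 3324, 2044 and 2367 in naive libraries. Naive library 1 stood apart from the other naive libraries, and with it the log2 differences from naive were 0.072 ± 0.15 at 39 °C (edgeR adjusted p = 0.695) and 0.014 ± 0.15 at 37 °C (edgeR adjusted p = 0.940). Without naive library 1 they were 0.30 and 0.24, and both passed the threshold. Without naive library 2 they were -0.072 and -0.13, and neither passed, so the sign of the B2m difference depends on which naive libraries are used. At 37 °C it was also below 0 without naive library 3 (-0.046) or 37 °C library 3 (-0.030). B2m exons are short, with 860 bases, and the same library was high for short genes as a whole; the part of this in the B2m value was not tested. Heavy chain counts were 3.99, 4.13 and 4.06 times the B2m count at 39 °C, 4.46, 4.57 and 4.16 times at 37 °C and 4.21, 5.84 and 5.66 times in naive libraries.

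Nlrc5, which switches on class I genes through the S, X and Y boxes, had 207, 233 and 247 CPM at 39 °C, 233, 256 and 222 at 37 °C and 244, 369 and 316 in naive libraries. The groups overlapped through naive library 1. Nlrc5 changed by -0.44 ± 0.13 at 39 °C (edgeR adjusted p = 0.0114) and by -0.39 ± 0.13 at 37 °C (edgeR adjusted p = 0.0202) against naive. The call at 37 °C was lost without naive library 2 (-0.24), naive library 3 (-0.37), 37 °C library 1 (-0.37) or 37 °C library 3 (-0.34). Nlrc5 has long exons (8493 bases) and naive library 1 was low for long genes (median of -0.095 on the log2 scale). The part of this in the Nlrc5 value was not tested. The genes most like Nlrc5 over the 9 libraries were Dock8, Vamp1, Ccdc88c, Zfp398 and Cdk5rap2, at a root-mean-square difference of 0.028 to 0.058 against 0.25 for the spread of Nlrc5. Dock8, a regulator of the actin skeleton in lymphocytes, averaged 225 ± 17.5 CPM at 39 °C, 232 ± 17.3 at 37 °C and 301 ± 61.3 in naive cells (SD, n = 3 each).

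Of the 9 members other than H2-Q10, 7 fell and 0 rose at 39 °C against naive, and 6 fell and 0 rose at 37 °C against naive (edgeR). Among all genes tested 58.9% were called at 39 °C (29.8% lower and 29.2% higher) and 62.7% at 37 °C (31.8% lower and 30.9% higher). The median log2 difference of the 9 was -0.39 in each comparison, with all genes at -0.0027 at 39 °C and -0.0025 at 37 °C. At 39 °C against 37 °C the 9 genes had a median of 0.023 and a range of -0.16 to 0.12, with all genes at 0.0041. Over these 9 members the count called was between 5 and 8 at 39 °C and between 4 and 7 at 37 °C against naive across the alternatives, and the highest counts came without naive library 1, where B2m joined as higher. The 8 heavy chains together took 1.13%, 1.10% and 1.04% of all counts at 39 °C, 1.151%, 1.11% and 1.14% at 37 °C and 1.37%, 1.25% and 1.35% in naive libraries.

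**Figure D4:**
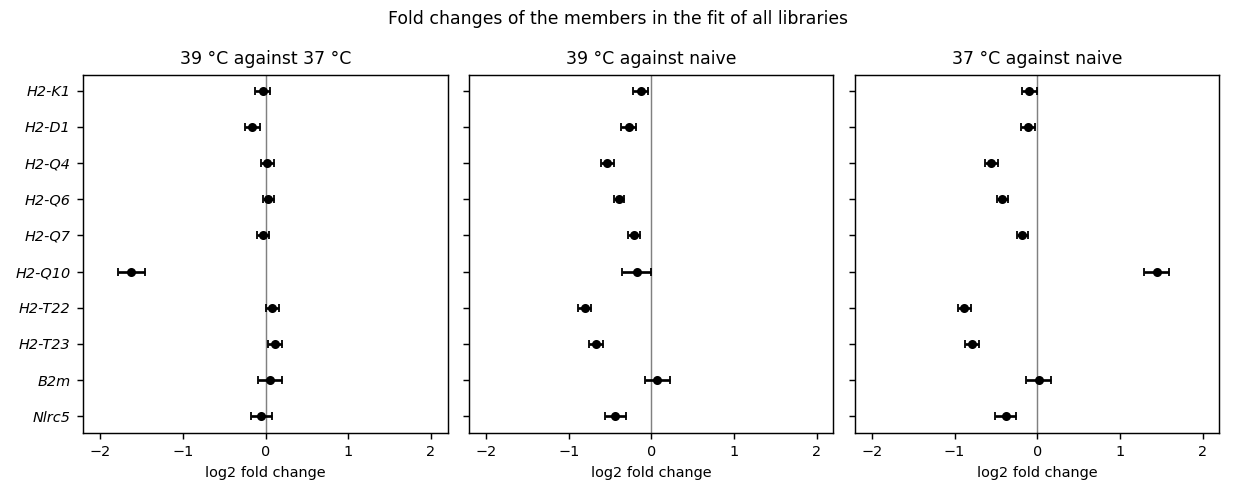
Fitted log2 fold change (horizontal axis) of each member with its SE (bars) at 39 °C against 37 °C, at 39 °C against naive and at 37 °C against naive, from the fit of all 9 libraries. H2-Q10 lies at -1.62, -0.18 and 1.44, and the other 9 members lie between -0.16 and 0.12 in the left panel and mostly below 0 in the other panels, which share the naive libraries.

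Per kilobase of exon, naive cells carried B2m at 2998 CPM, H2-K1 at 1843 and H2-D1 at 1347. H2-Q7, H2-Q4 and H2-Q6 followed close together at 380, 375 and 352 CPM per kilobase, and their order changed when only stretches unique to each gene were counted as length, as did that of H2-K1 and H2-D1 with 100-base stretches. H2-T23 (190), H2-T22 (97.8), Nlrc5 (36.5) and H2-Q10 (0.976 CPM per kilobase) kept the lowest places, in that order, under each measure of length.

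The class I genes outside the 10 were mostly lower after activation as well. Of 8 tested heavy chain genes, 6 fell and 1 rose at 39 °C against naive, and 6 fell and 0 rose at 37 °C against naive. Among all genes tested 29.8% were called lower at 39 °C and 31.8% at 37 °C. Some of the 8 share sequence with members, as H2-T10 does with H2-T22, so their counts are not separate from those of the members. H2-T24 changed by -1.98 ± 0.16 at 39 °C (edgeR adjusted p = 5.33e-07) and -1.73 ± 0.16 at 37 °C (edgeR adjusted p = 1.35e-06). H2-M3, which presents formylated bacterial peptides, changed by -0.64 ± 0.079 and -0.73 ± 0.079, and H2-T10, the close copy of H2-T22, by -0.65 ± 0.070 and -0.58 ± 0.069, each at 39 °C and at 37 °C against naive. H2-Q2 had 30 counts over the 39 °C libraries, 31 over those of 37 °C and 124 over naive ones. The gene that rose at 39 °C was H2-Bl, with 19, 17 and 8 counts at 39 °C, 10, 4 and 3 at 37 °C and 2, 0 and 3 in naive libraries. It falls outside the rule for named genes and was picked after its values were seen.

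H2-K2, a class I sequence of the K region, was the only one of these 8 called between the temperatures. It had 67.3, 64.5 and 61.1 CPM at 39 °C, 95.8, 89.0 and 87.8 at 37 °C and 124, 101 and 111 in naive libraries. The groups did not overlap, and H2-K2 fell by 0.50 ± 0.081 at 39 °C against 37 °C (edgeR adjusted p = 0.0135). The call was lost when any 37 °C library, 39 °C library 2 or 39 °C library 3 was left out, with adjusted p up to 0.112 over the alternatives.

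Class I-like molecules moved in both directions. Cd1d1, which presents lipids to natural killer T cells, had 28.4, 29.6 and 27.0 CPM at 39 °C, 20.4, 20.8 and 21.97 at 37 °C and 61.0, 56.4 and 56.4 in naive libraries. It changed against naive by -1.03 ± 0.072 at 39 °C and -1.46 ± 0.074 at 37 °C, and it was 0.43 ± 0.076 higher at 39 °C than at 37 °C (edgeR adjusted p = 0.0229), a call lost without any single library of either temperature, with adjusted p up to 0.179. Mr1, which presents vitamin B metabolites, changed by -2.27 ± 0.13 at 39 °C and -2.26 ± 0.13 at 37 °C, and Fcgrt, the neonatal Fc receptor, by -3.46 ± 0.27 at each temperature against naive. Ulbp1, a ligand of the NKG2D receptor, rose by 0.91 ± 0.13 at 39 °C and 0.89 ± 0.13 at 37 °C. Of the 6 tested, 4 fell and 1 rose at 39 °C, and 4 fell and 2 rose at 37 °C against naive. These counts are to be read against the shares of all genes given above.

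Genes of the steps that supply peptide were called in both directions. The catalytic subunits of the immunoproteasome fell against naive: Psmb9 changed by -1.08 ± 0.10 at 39 °C and -1.17 ± 0.10 at 37 °C, Psmb10 by -1.03 ± 0.11 and -1.147 ± 0.11, and Psmb8 by -1.04 ± 0.11 and -1.14 ± 0.11, while the assembly factor Pomp rose by 0.57 ± 0.12 and 0.40 ± 0.12. In that list of 6, 3 fell and 2 rose in each comparison with naive. Tap2, a subunit of the peptide transporter, changed by -0.53 ± 0.064 at 39 °C and -0.60 ± 0.065 at 37 °C. The chaperone calnexin (Canx) rose by 0.99 ± 0.071 and 1.18 ± 0.071, the translocon subunit Sec61a1 by 0.92 ± 0.094 and 0.93 ± 0.094, and the peptide trimming enzyme Erap1 by 0.61 ± 0.067 and 0.66 ± 0.067. Of 12 genes of transport and loading, 3 fell and 5 rose at 39 °C, and 4 fell and 6 rose at 37 °C against naive. Among all genes 29.8% fell and 29.2% rose at 39 °C, and 31.8% fell and 30.9% rose at 37 °C, so calls in both directions in a list of this size are read as no result of their own.

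Partners of NLRC5 on the S, X and Y boxes were also called in both directions. Rfxank changed by -0.58 ± 0.11 at 39 °C and -0.70 ± 0.11 at 37 °C and Rfxap by -0.61 ± 0.11 and -0.65 ± 0.11, both subunits of the RFX complex. Rfx5, an RFX gene of the list outside the rule for named genes, rose by 0.49 ± 0.18 and 0.57 ± 0.18. Nfya, a subunit of the CCAAT-binding factor NF-Y, rose by 0.48 ± 0.069 and 0.58 ± 0.069. The other NF-Y genes of the list, Nfyb and Nfyc, were called in neither comparison. Ciita, the class II relative of Nlrc5, changed by -1.67 ± 0.26 and -1.61 ± 0.26. Of the 9 genes, 3 fell and 4 rose in each comparison, to be read against the same shares of all genes. Among 18 interferon and NF-kB factors, 8 fell and 6 rose at 39 °C and 9 fell and 6 rose at 37 °C against naive. Irf7, a factor of the type I interferon response, changed by -2.45 ± 0.092 and -2.39 ± 0.091, Irf8 rose by 2.27 ± 0.064 and 2.44 ± 0.064, and the NF-kB subunits Nfkb1 and Relb rose by 2.29 ± 0.081 and 1.75 ± 0.067 at 39 °C and by 2.43 ± 0.081 and 1.63 ± 0.067 at 37 °C.

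Genes of class II and of class I receptors fell nearly throughout against naive, and the B cell, NK cell and CD8 T cell marker sums given above fell too. These lists overlap: Cd8a and Cd8b1 make up the CD8 T cell marker list, and Klrd1 is in the NK cell list. The falls of these receptor genes and of those sums are therefore not separate observations. Among all genes tested 29.8% were called lower at 39 °C and 31.8% at 37 °C against naive. All 9 class II genes fell in both comparisons, with H2-Ob at -1.25 ± 0.065 at 39 °C and -1.45 ± 0.066 at 37 °C and H2-Ab1 at -1.34 ± 0.11 and -0.96 ± 0.11. Of 5 receptor genes 4 fell and 1 rose in each, with Cd8b1, a chain of the CD8 co-receptor, at -1.07 ± 0.13 and -0.96 ± 0.13 and Klrd1 (CD94) at -1.12 ± 0.14 and -1.04 ± 0.14.

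At 39 °C against 37 °C, edgeR called 0 genes in the lists of peptide loading (12 tested, 1 at unadjusted p under 0.05), immunoproteasome (6 and 0), S-X-Y factors (9 and 0), interferon and NF-kB factors (18 and 2), class II (9 and 4) and class I receptors (5 and 0). DESeq2 called 0 in each of these except class II, where it called 1, H2-Eb1, which the rule for named genes does not cover. Among all genes 101 were called, 83 of them lower at 39 °C, with 1061 at unadjusted p under 0.05. Medians of these lists lay between -0.25 for class II and 0.13 for the immunoproteasome.

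**Figure D5:**
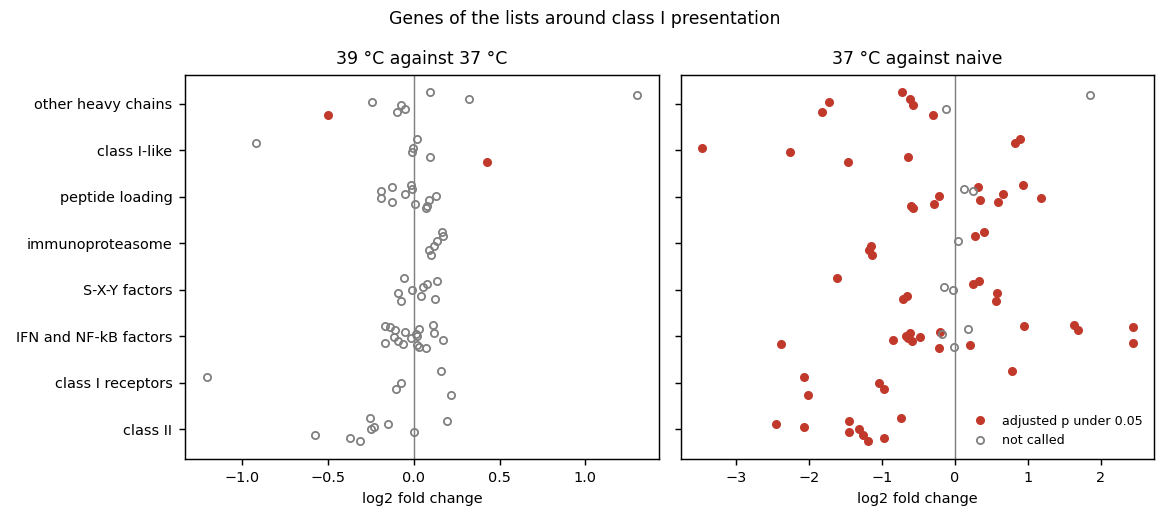
Fitted log2 fold change (horizontal axis) of every tested gene in the 8 lists around class I presentation at 39 °C against 37 °C and at 37 °C against naive; filled points have an edgeR adjusted p under 0.05. At 39 °C against 37 °C H2-K2 and Cd1d1 are filled, and at 37 °C against naive all 9 class II genes are filled and below 0.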

How the data were processed

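Each of the 9 libraries was deposited as 1 table of raw read counts per gene, not normalised, and the second column was used. Per the submitters' processing notes, FastQC, HISAT2, HTSeq and DESeq2 were used with GRCm38, with no versions given; which program made the tables, the strand setting, the read length and the handling of reads with several matches are not given in the sources used here. Per the labels' protocols, TRIzol was used for RNA isolation and a TruSeq kit for the libraries. Of 55573 identifiers, 55480 matched GENCODE M21, which supplied symbols and GRCm38 coordinates.

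Genes passing filterByExpr (at least 10 counts, total at least 15) were scaled with TMM factors, and all libraries were fitted together with edgeR 4.0.16 (R 4.3.3). Quasi-likelihood F tests were 2-sided and adjusted by Benjamini-Hochberg over 13328 genes, with a threshold of 0.05. The SE of a log2 fold change is its size over the square root of F. DESeq2 1.42.0 was an alternative. With totals of 12647692 to 17605549 counts, H2-Q10, at 2.93 to 4.67 CPM in the 39 °C and naive libraries, rests there on 42 to 77 counts per library.

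The members, lists and tests were chosen with earlier results of these data known. The genes named are the 10 members, from each list the genes called at 39 °C against 37 °C and up to 4 called at 37 °C against naive by adjusted p, and the 5 genes most like H2-Q10 and Nlrc5. Promoter windows came from RefSeq, which held 9 of the 10 members. Stretches of 50, 75 and 100 bases were compared between annotated transcripts without regard to strand.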

Additional observations from a re-analysis of the deposited data

Results flagged for a closer look

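A pair of genes outside the 10 members differed between the temperatures by edgeR's test of that difference. H2-K2 had a log2 difference of -0.4985 at 39 °C against 37 °C, lower in 3 of 3 libraries. Cd1d1 had a log2 difference of 0.4258 at 39 °C against 37 °C, higher in 3 of 3 libraries. Both stood below naive cells at either temperature. The H2-K2 call was lost without any 37 °C library, 39 °C library 2 or 39 °C library 3 (edgeR adjusted p up to 0.112). The Cd1d1 call was lost without any single library of either temperature (edgeR adjusted p up to 0.179).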

How the results depend on the processing

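Alternatives were another normalisation (RLE, or library size alone), another filter, DESeq2, fitting 6 libraries alone, summing near-identical copies, a replicate block and leaving out each library. No member with a call changed direction. The count of all genes called at 39 °C against 37 °C was 101, and it was 176 with any count kept, 401 with 6 libraries fitted alone and 37 to 291 with 1 library left out. The highest of these, 291, came without naive library 1 and the lowest, 37, without 39 °C library 2; it was also 43, 51 and 45 without 37 °C library 1, 2 or 3, 51 and 45 without 39 °C library 1 or 3, and 152 without naive library 2. The H2-Q10 difference at 39 °C against 37 °C ran from -1.83 to -1.47, and at 39 °C against naive from -0.40 to -0.026. Its share of heavy chain counts in naive cells was 0.0311% with all annotated class I genes as denominator, and 0.0319% to 0.0330% with 1 library left out. With all heavy chain counts summed, the difference from naive was -0.26 at 39 °C and -0.21 at 37 °C. Whether replicate numbers pair the libraries is not labelled. Same-numbered libraries correlated between -0.171 and 0.330 in their deviations from group means, and differently numbered ones between -0.338 and 0.362. With 3 libraries per group, these correlations cannot decide whether the libraries are paired. With the replicate block, H2-Q7 at 37 °C against naive (-0.18) lost its call and 97 genes were called at 39 °C against 37 °C. The cause of these shifts was not tested. H2-Q10, with 42 to 161 counts per library, is the member whose precision depth limits most.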
